A study of Homo sapiens with 6 samples.

Results

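The genes described here encode 9 proteins of the epithelial tight junction, taken by exact gene symbol from the 23285 genes of the deposited table. They are the claudins *CLDN1*, *CLDN4*, *CLDN7*, *CLDN11* and *CLDN12*, occludin (*OCLN*), the junctional adhesion molecule JAM-A (*F11R*), and the scaffolds ZO-1 (*TJP1*) and ZO-3 (*TJP3*). They were measured by RNA sequencing in PC3 cells, a prostate cancer line from a bone metastasis. Cells that had received a non-specific siRNA were compared with cells that had received one directed at paxillin (*PXN*, a focal adhesion adaptor), both for 72 h. Each condition has 3 libraries that carry replicate numbers 1 to 3. Nothing in the labels says whether these were separate cultures, so p-values measure the spread between these libraries, which may be technical. The number of siRNA sequences is not stated in the labels.

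Tight junctions seal the space between neighbouring epithelial cells near their apical side. Claudins are membrane proteins that pass through the membrane several times and form the paired strands of the seal. Some tighten it and others form pores for ions. Occludin belongs to another membrane protein family of the strand, JAM-A is an immunoglobulin-type adhesion molecule beside it, and the ZO proteins tie these tails to actin. Carcinomas often keep claudin transcripts while the junction itself is reorganised, and mRNA levels say nothing of where the proteins sit.

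Paxillin mRNA checked the labels. The non-specific libraries held 835, 854 and 718 CPM of it (CPM are counts scaled to library size, here with TMM factors), the paxillin libraries 59.2, 55.7 and 91.7 CPM. The libraries held 25252317 to 30394729 estimated counts, which correspond to about 22209800 to 33627600 reads, and 3 reads amount to 0.0892 to 0.135 CPM. Both libraries numbered 3 were nearer to each other than to their own groups, with a correlation of log2 CPM across genes of 0.986. Paxillin siRNA replicate 3 correlated at 0.971 to 0.973 with its own group, and non-specific siRNA replicate 3 at 0.974 to 0.984. Results that rest on paxillin siRNA replicate 3 are given with and without it. Keratins *KRT8* and *KRT18* were at 171 CPM or more in every library.

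With the group as the only term in edgeR's quasi-likelihood test, 0 of the 9 genes passed an adjusted p of 0.05, against 1.18% of all 15876 genes tested. At an unadjusted p under 0.05 there were 3 (*CLDN7*, *TJP3* and *F11R*), against 22.5% of all genes. Libraries with the same replicate number deviated together, so a second fit kept the number as a block. In that fit *F11R*, *OCLN*, *CLDN7* and *TJP3* rose and *CLDN1* fell, while *CLDN4*, *CLDN11*, *CLDN12* and *TJP1* did not pass. The share of all genes called in the blocked fit was 11.7% higher and 10.7% lower, which is the background for these 4 and 1 of 9. Among the pairs of equal number, 5 genes were higher in all 3 pairs, against 29.2% of all genes, and 1 was lower in all 3, against 28.7%. All 9 genes passed the filter on low counts. In bulk RNA, fewer cells of a type and less RNA per cell cannot be told apart.

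The blocked calls of the genes that rose did not all hold when a pair of libraries was left out. Without both libraries numbered 1, 0 of the 9 genes passed upward, against 1.77% of all genes, with adjusted p-values from edgeR of 0.0638 for *CLDN7*, 0.0641 for *F11R*, 0.0960 for *OCLN* and 0.172 for *TJP3*. Their log2 fold changes were then 1.42, 0.79, 0.69 and 1.14, in the same order. Leaving out both libraries numbered 2 left 2 higher (*CLDN7* and *F11R*), against 4.29% of all genes, and the adjusted p-values from edgeR were 0.0896 for *OCLN* and 0.0596 for *TJP3*. Without those numbered 3, the count was 4, against 16.1%. The call of *CLDN1* was kept in each of these fits, with adjusted p-values from edgeR of 0.0434, 0.0256 and 0.00557. In the same order, 173 of 15943, 653 of 15933 and 2318 of 15939 genes tested were called lower. In the unblocked fit, leaving out paxillin siRNA replicate 3 brought 3 genes past the threshold (*CLDN7*, *TJP3* and *F11R*), against 7.24% of all genes called higher. DESeq2 called 2 of the 9 genes higher (*CLDN7* and *F11R*), against 4.79%.

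**Figure D1:**
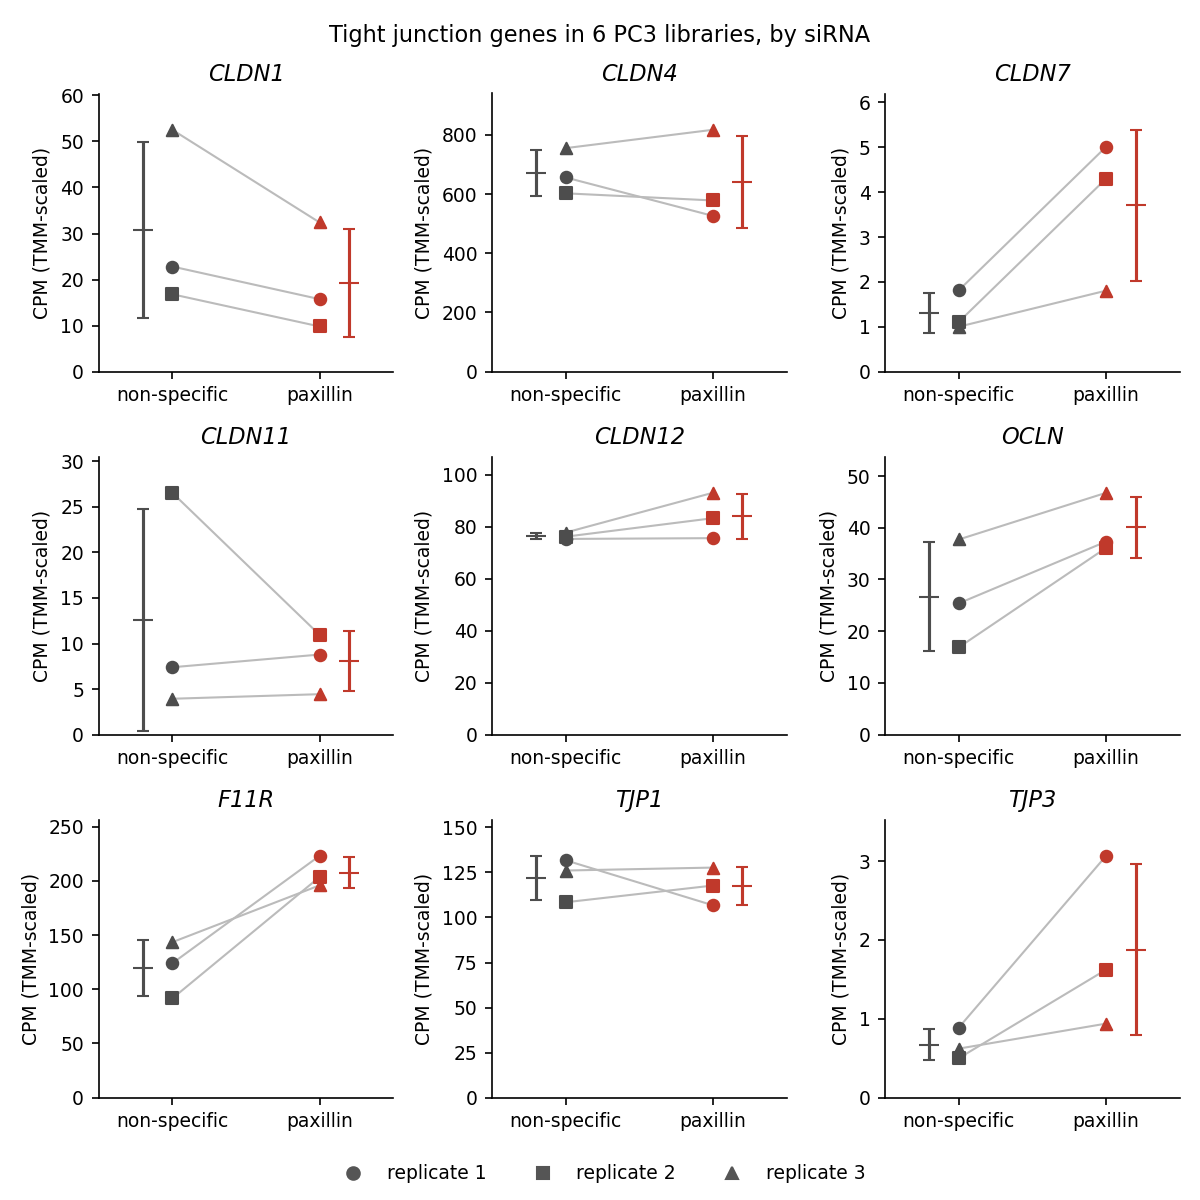
TMM-scaled CPM (y axis, starting at 0) of the 9 tight junction genes in the 6 PC3 libraries, by siRNA (x axis). Symbols mark the replicate number, grey lines join equal numbers, and bars give the mean ± SD of 3 libraries. Lines for *F11R*, *OCLN*, *CLDN7* and *TJP3* all slope up and those for *CLDN1* all slope down, while *CLDN4*, *CLDN11* and *TJP1* have lines in both directions.

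Per length, the claudin transcripts of these cells were led by *CLDN4*. Its level was 148 ± 17.2 FPKM (SD, n = 3) with non-specific siRNA, and it made up 58.9% to 62.6% of the summed FPKM of 23 claudin genes in the 6 libraries. FPKM, which the authors deposited, scale fragments by transcript length and library depth and allow levels of different genes to be compared. Among the 9 genes, next in order with non-specific siRNA came *F11R* at 8.18 ± 2.05, *CLDN12* at 7.80 ± 0.549, *TJP1* at 5.48 ± 0.665 and *CLDN1* at 3.52 ± 2.35 FPKM (SD, n = 3 each). *CLDN11* at 1.78 ± 1.68 and *OCLN* at 1.51 ± 0.668 FPKM followed. At the low end stood *CLDN7* at 0.314 ± 0.110 and *TJP3* at 0.0833 ± 0.0230 FPKM. The library ranges of *F11R* and *CLDN12* overlapped, as did those of *TJP1* and *CLDN1*, *CLDN1* and *CLDN11*, and *CLDN11* and *OCLN*. The other neighbours in this order did not overlap. *CLDN7* and *TJP3*, the 2 lowest of the 9, also had the largest log2 fold changes.

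**Figure D2:**
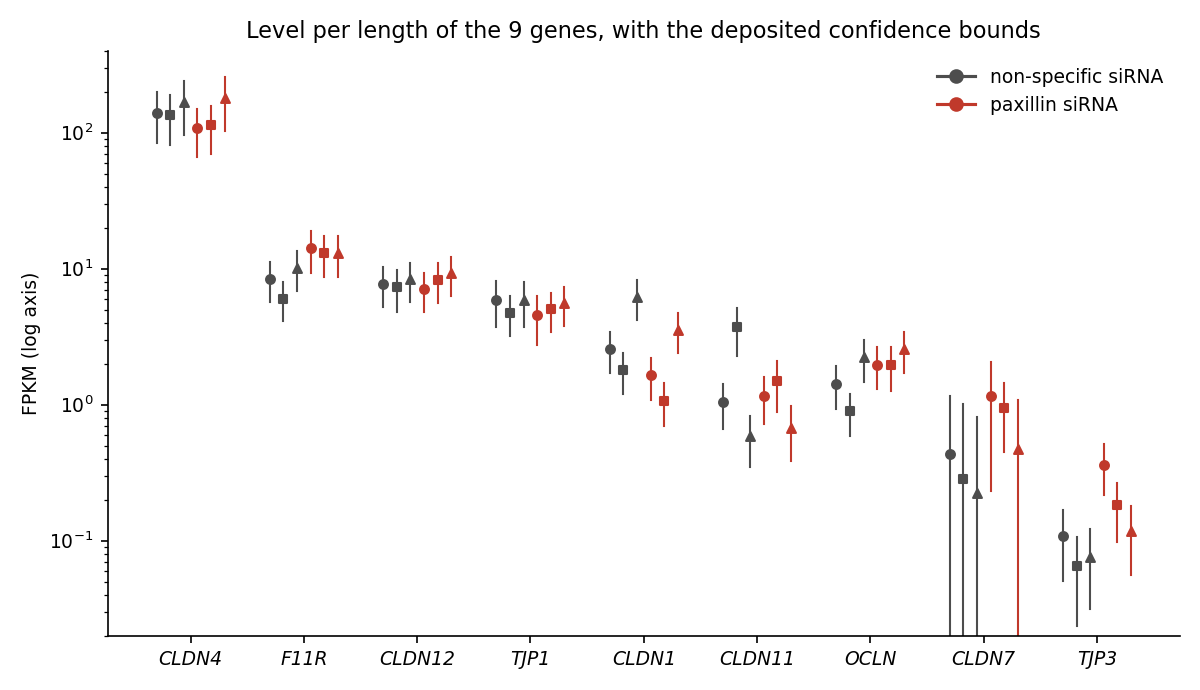
Deposited FPKM (log axis) of the 9 genes, ordered by their level with non-specific siRNA. Each symbol is 1 library (circle, square and triangle for replicates 1, 2 and 3) and each line spans the authors' confidence bounds, with lower bounds of 0 drawn down to the axis. *CLDN4* lies above 100 FPKM in every library and *TJP3* below 0.4 FPKM.

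*CLDN4*, which codes for a claudin of tight epithelia and is known as a receptor of a clostridial toxin, lies at chr7:73245193-73247015 (hg19). The non-specific libraries gave 657, 603 and 756 CPM in order of their number, and the paxillin libraries 527, 579 and 818 CPM. The paxillin libraries lay on both sides of the non-specific ones, 2 below them and replicate 3 above. The log2 fold change was -0.07 ± 0.20 (SE; edgeR adjusted p = 0.872), and the 95% interval of the ratio ran from 0.691 to 1.32.

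*CLDN4* shares long stretches of coding sequence with other claudins, and the reads of some of them kept a nearly fixed ratio to its own. *CLDN6* reads were 4.81% to 5.28% of *CLDN4* reads in the 6 libraries, *CLDN9* reads 4.84% to 5.34% and *CLDN5* reads 3.70% to 4.16%. The highest ratio was 1.10 times the lowest for *CLDN6* and *CLDN9*, and 1.12 times for *CLDN5*. For *CLDN3*, at 47.0 ± 10.4 FPKM with non-specific siRNA, the lowest ratio was 15.1% and the highest was 1.33 times that. *CLDN12*, which shares at most 10 bases in a row with *CLDN4*, varied little more than *CLDN3*, from 10.3% to 14.4%. *CLDN14* reads ranged from 1.74% to 3.46% of *CLDN4* reads, *CLDN1* reads from 1.69% to 6.95% and *CLDN15* reads from 1.41% to 4.57%. *CLDN6* and *CLDN9*, which neighbour each other, had almost equal reads in every library, with *CLDN6* at 98.6% to 100.4% of *CLDN9*. These claudins were chosen after their values were seen.

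The longest run of identical bases between the reading frames of *CLDN3* and *CLDN4* was 71 bases (bases 151 to 221 of the *CLDN4* frame), in the GENCODE transcripts that accompany GRCh38. It is shown because a read that lies wholly inside it would fit both genes, and its capitals mark the 48 bases that *CLDN6* also holds.
CLDN3 and CLDN4: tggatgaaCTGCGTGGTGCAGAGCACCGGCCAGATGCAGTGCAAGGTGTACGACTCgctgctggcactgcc
The longest runs that *CLDN4* shares with *CLDN9* and *CLDN5* were 29 and 20 bases, and *CLDN6* and *CLDN9* share 74. *CLDN1*, *CLDN7*, *CLDN11* and *CLDN12* shared no more than 14 bases in a row with *CLDN4*. The labels do not state how reads that fit several claudins were divided. The levels of *CLDN3*, *CLDN4*, *CLDN5*, *CLDN6* and *CLDN9* may therefore be uncertain in their split. For *CLDN5* the longest runs shared with the others were no longer than 20 bases. The part of shared reads was not tested.

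**Figure D3:**
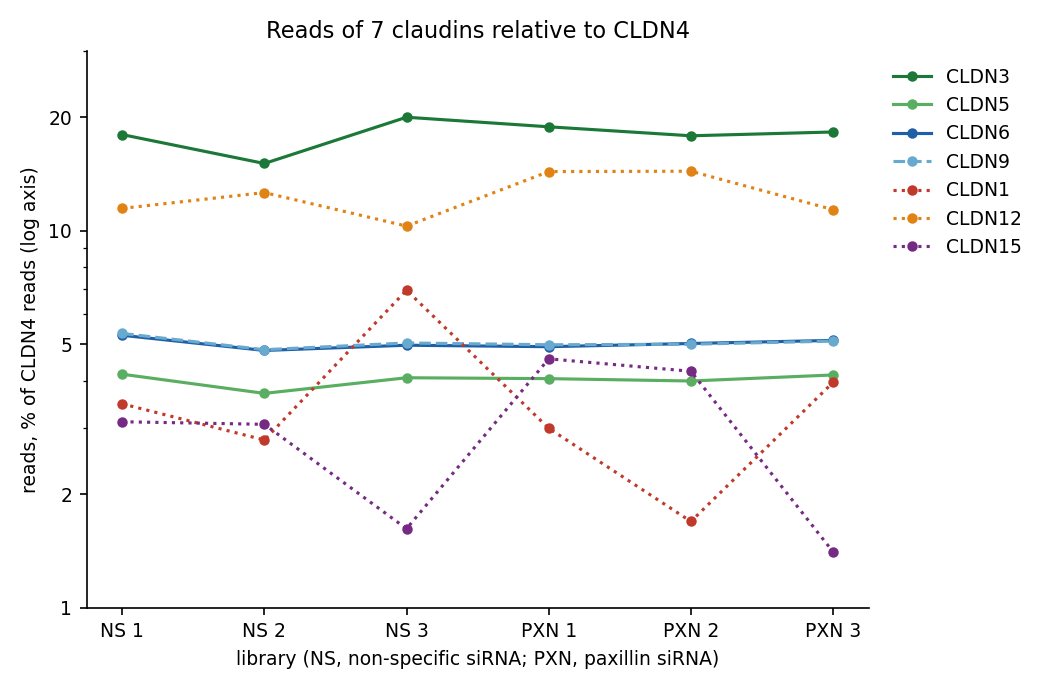
Reads of 7 claudins as a percentage of *CLDN4* reads (log axis) in each library (NS, non-specific siRNA; PXN, paxillin siRNA). Solid and dashed lines are *CLDN3*, *CLDN5*, *CLDN6* and *CLDN9*, dotted lines the others. The lines of *CLDN6* and *CLDN9* lie on each other near 5%, while *CLDN1* and *CLDN15* vary from library to library.

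*CLDN1* codes for a barrier-tightening claudin that is required for the water barrier of skin, and lies at chr3:190023490-190040235 (hg19). It was the only one of the 9 genes that was lower in all 3 pairs. Non-specific libraries 1 to 3 held 22.8, 16.8 and 52.5 CPM, their paxillin partners 15.7, 9.81 and 32.4 CPM. Both replicates 3 were the highest of their group, so the groups overlapped. Within pairs, paxillin siRNA was 0.690, 0.584 and 0.617 times the non-specific level. Adding the block left the log2 fold change at -0.67 and narrowed its SE from 0.52 to 0.13. The edgeR adjusted p was 0.476 unblocked and 0.00353 with the block. Without non-specific siRNA replicate 3 the unblocked value was -0.03, and without paxillin siRNA replicate 3 it was -1.27.

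*CLDN7* codes for a claudin of simple epithelia that also lies along the lateral membrane and binds EPCAM. It rose in the blocked fit from a low level. The non-specific libraries held 61, 33 and 21 of its reads, the paxillin libraries 163, 134 and 40. That is 1.81, 1.11 and 1.00 CPM against 5.01, 4.30 and 1.81 CPM. Paxillin siRNA replicate 3 fell just under non-specific siRNA replicate 1, so the groups overlapped at that point only. The ratios within pairs were 2.76, 3.88 and 1.80. The unblocked ratio of the groups was 2.83, with a 95% interval of 1.43 to 5.57 (edgeR adjusted p = 0.105). With the block the log2 fold change was 1.45 ± 0.25 (SE; adjusted p = 0.00249). Leaving out paxillin siRNA replicate 3 gave a log2 fold change of 1.83 unblocked (adjusted p = 0.0120).

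The table gives *CLDN7* the locus chr17:7155372-7166512 (hg19), the same as that of *C17orf81*, a gene it overlaps. The labels do not state whether strand was used in counting, so reads of the overlapping parts cannot be told apart. *C17orf81* was at 27.0 ± 2.59 CPM with non-specific and 22.5 ± 0.515 CPM with paxillin siRNA (SD, n = 3 each), lower in all 3 pairs (edgeR adjusted p = 0.269, and 0.160 with the block). The authors' lower confidence bound for *CLDN7* FPKM was 0 in all 3 non-specific libraries and in paxillin siRNA replicate 3.

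*CLDN12* is an unusual claudin without the usual tail that binds ZO proteins, and is associated with calcium permeability of the gut. It lies at chr7:90032648-90045268 (hg19). The non-specific libraries lay close together at 75.2, 76.1 and 77.7 CPM, and the paxillin libraries gave 75.5, 83.2 and 93.0 CPM. It was higher in all 3 pairs, though in pair 1 only by a ratio of 1.00. The log2 fold change was 0.14 ± 0.12 (SE; edgeR adjusted p = 0.539), and the 95% interval of the ratio ran from 0.905 to 1.34.

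*CLDN11*, known from myelin and the blood-testis barrier, lies at chr3:170136653-170152479 (hg19). Among the non-specific libraries it had 7.40, 26.5 and 3.94 CPM, and among the paxillin libraries 8.79, 10.9 and 4.44 CPM. One library, non-specific siRNA replicate 2, stood far above the rest. The unblocked log2 fold change of -0.65 ± 0.65 (SE; edgeR adjusted p = 0.592) turned to 0.50 without it. In the blocked fit it was -0.32 (adjusted p = 0.409).

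*OCLN*, at chr5:68788119-68853931 (hg19), codes for occludin, the first membrane protein found in tight junction strands. Levels of 25.4, 16.9 and 37.7 CPM in the non-specific libraries stood against 37.3, 36.1 and 46.8 CPM in the paxillin libraries. Non-specific siRNA replicate 3 lay above 2 of the paxillin libraries, so the groups overlapped. Each paxillin library was nevertheless above its own partner, by ratios of 1.47, 2.14 and 1.24. The log2 fold change was 0.59 ± 0.27 unblocked (SE; edgeR adjusted p = 0.251) and 0.65 ± 0.15 with the block, where it rose (adjusted p = 0.0103). A partial copy of *OCLN* lies nearby on the same chromosome, and the labels do not state how reads were divided between the copies.

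*F11R*, at chr1:160965001-160991133 (hg19), codes for JAM-A, which helps to place the polarity complex at young cell contacts. It had the largest difference in CPM among the genes that rose. Non-specific siRNA gave 124, 91.5 and 143 CPM and paxillin siRNA 223, 204 and 196 CPM. The groups did not overlap, and pair ratios were 1.80, 2.22 and 1.37. An exact permutation test of the group difference gave p = 0.1 (two-sided), the smallest p that 3 against 3 libraries allow. The edgeR log2 fold change was 0.79 ± 0.18 unblocked (SE; adjusted p = 0.0720) and 0.82 ± 0.15 with the block (adjusted p = 0.00269). DESeq2 gave an adjusted p of 0.00334.

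*TJP1*, at chr15:29992357-30114706 (hg19), codes for ZO-1, the scaffold that binds claudin tails and actin. The non-specific values of 132, 108 and 126 CPM and the paxillin values of 107, 118 and 128 CPM overlapped. The log2 fold change was -0.06 ± 0.13 (SE; edgeR adjusted p = 0.836), with a 95% interval of the ratio from 0.776 to 1.19.

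*TJP3*, at chr19:3728374-3750682 (hg19), codes for ZO-3, the ZO family member most restricted to epithelia. The non-specific libraries held 30, 15 and 13 of its reads and the paxillin libraries 99, 51 and 21, or 0.889, 0.501 and 0.622 CPM against 3.07, 1.62 and 0.939 CPM. The groups did not overlap, but the lowest paxillin value lay close above the highest non-specific value. Of the 9 genes, 2 (*F11R* and *TJP3*) had groups apart in the upward direction, against 13.6% of all genes. The log2 fold change was 1.48 ± 0.47 (SE; edgeR adjusted p = 0.127), and in the blocked fit *TJP3* rose by 1.40 ± 0.31 (adjusted p = 0.00780). Leaving out paxillin siRNA replicate 3 gave 1.80 unblocked (adjusted p = 0.0248). Whether *TJP1* and *TJP3* differ in their response was not tested.

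**Figure D4:**
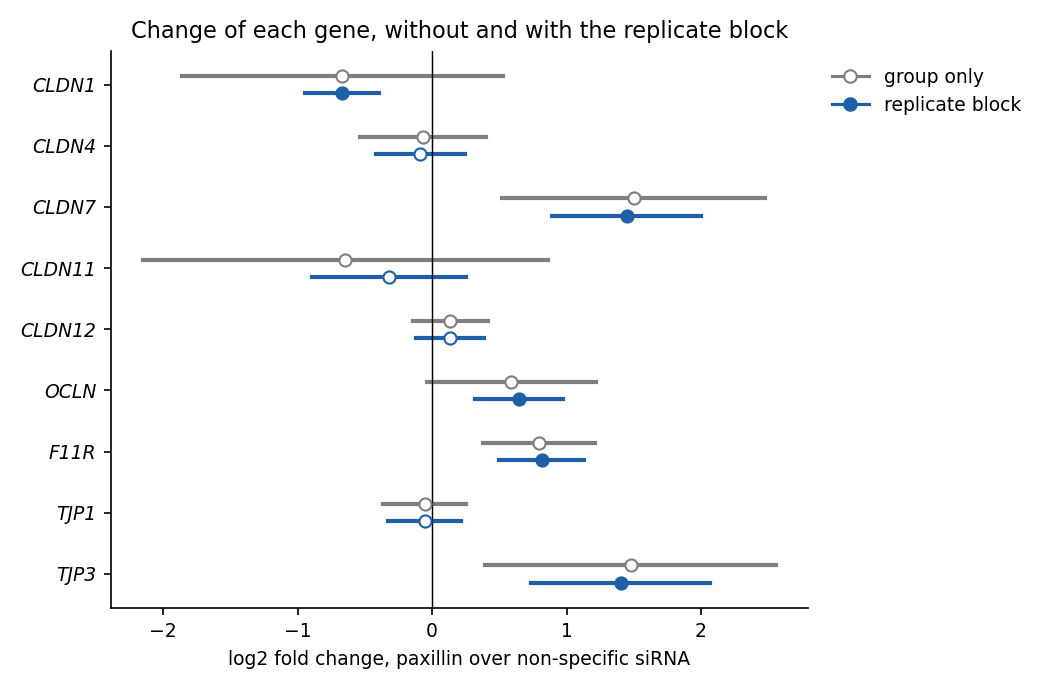
Log2 fold change (x axis, paxillin over non-specific siRNA) of the 9 genes from edgeR with the group only (grey) and with the replicate block (blue). Lines are 95% intervals and filled symbols mark an adjusted p under 0.05. The block moves the points little, except for *CLDN11*, and shortens most lines, above all those of *CLDN11* and *CLDN1*.

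The promoter letters of the genes that moved were read from RefSeq (GRCh38.p14), over the 250 bases before each start. The table held 8 of the 9 genes with 15 starts in all. *F11R* was not matched. Searched on both strands were CAGGTG (an E-box read by SNAI and ZEB repressors), AACCGGTT (the grainyhead motif), GGGCGG (the GC box of SP factors) and the core of the interferon-stimulated response element. CAGGTG was found at 5 starts of 4 genes (*CLDN7*, *OCLN*, *TJP1* and *TJP3*), and in 17.49% of all 35116 promoters. GGGCGG was found at 11 starts of 7 genes, and in 42.64% of promoters. AACCGGTT was at 0 of the 15 starts and in 0.1168% of promoters. None of these motifs contains another, and a match is a description of these letters only.

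The CAGGTG match nearest to a start in each of *CLDN7*, *OCLN* and *TJP3* is shown in capitals, within 30 bases. For the 2nd start of *CLDN7*, on the minus strand at chr17:7262479-7262508, the stretch ends at the base before the start, and 2 further matches lie 174 and 135 bases before it. The *OCLN* stretch is on the plus strand at chr5:69492502-69492531 and its match begins 33 bases before the 1st start, with another 133 bases before the 2nd start that is not shown. The *TJP3* stretch, on the plus strand at chr19:3721707-3721736, ends at the base before the 2nd start.
CLDN7: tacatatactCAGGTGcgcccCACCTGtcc
OCLN: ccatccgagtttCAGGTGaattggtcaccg
TJP3: gagacctggaggaggaagaggggCAGGTGc
All 3 stretches also lie in annotated exons of other transcripts of their genes.

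The 1st start of *CLDN7* (minus strand, chr17:7263214-7263463) held the 1 match to the interferon-stimulated response element core among the 15 starts, found in 3.021% of promoters. It is in capitals, read on the opposite strand, and begins 139 bases before the start.
CLDN7: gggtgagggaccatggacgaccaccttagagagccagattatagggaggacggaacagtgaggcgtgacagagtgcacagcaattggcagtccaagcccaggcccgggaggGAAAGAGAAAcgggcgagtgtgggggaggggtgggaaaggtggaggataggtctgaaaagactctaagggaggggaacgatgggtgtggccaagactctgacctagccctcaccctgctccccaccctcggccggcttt
*CLDN1*, the gene that fell in the blocked fit, held GGGCGG at 88 and 40 bases before its start (capitals, the first read on the opposite strand), and no CAGGTG. Its stretch (minus strand, chr3:190322476-190322696) stops 30 bases before the start.
CLDN1: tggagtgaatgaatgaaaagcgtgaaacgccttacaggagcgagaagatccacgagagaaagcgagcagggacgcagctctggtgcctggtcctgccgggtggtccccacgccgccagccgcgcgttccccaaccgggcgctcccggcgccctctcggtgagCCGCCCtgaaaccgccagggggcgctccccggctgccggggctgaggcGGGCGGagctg

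Among the other membrane proteins of the tight junction, 11 of 12 were tested. None was called in the unblocked edgeR fit, against 1.18% of all genes in either direction. At an unadjusted p under 0.05, 4 were higher, against 22.5% of all genes in either direction. With the block 6 rose and 0 fell, against 11.7% and 10.7% of all genes. The list's median log2 fold change was 0.75, against 0.13 for the 9 genes in the blocked fit and 0.00471 for all genes tested. *CRB3*, the apical polarity protein Crumbs 3, rose from 0.387 ± 0.150 to 2.28 ± 1.30 CPM (log2 fold change 2.43 ± 0.42, edgeR adjusted p = 0.00239 with the block, 0.0704 without). *ILDR1*, an angulin of junctions where 3 cells meet, rose from 0.329 ± 0.0989 to 1.38 ± 0.854 CPM (adjusted p = 0.00436, and 0.0897 without the block). *CXADR*, the coxsackievirus and adenovirus receptor, rose from 12.8 ± 7.09 to 22.8 ± 5.40 CPM (adjusted p = 0.00431, and 0.269 without). Chosen after their values were seen, *MARVELD2* (tricellulin, of the occludin family) went from 8.15 ± 1.68 to 15.1 ± 3.22 CPM and the angulin *LSR* from 23.6 ± 9.54 to 33.7 ± 5.19 CPM (edgeR adjusted p = 0.00849 and 0.0148 with the block). Unblocked, *MARVELD2* and *LSR* did not pass (edgeR adjusted p = 0.0848 and 0.303), and the groups of *LSR* overlapped. Without both libraries of number 1 the blocked calls of *CRB3*, *ILDR1* and *CXADR* were lost (edgeR adjusted p = 0.0840, 0.142 and 0.0807). For these and the following genes, errors are SD with n = 3 for levels and SE for fold changes.

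The scaffold and polarity list had 22 of 23 genes tested. Unblocked, 1 was higher and 0 lower, against 1.18% of all genes called in either direction. With the block, 6 were higher and 1 lower, against 11.7% and 10.7% of all genes. The gene of this list called in both fits was *CGNL1*, the cingulin paralog paracingulin, a cytoplasmic protein of junctions. It went from 3.51 ± 0.720 to 9.55 ± 2.19 CPM, and its pair ratios of 2.78, 2.60 and 2.76 were nearly the same. Its log2 fold change was 1.44 ± 0.24 (edgeR adjusted p = 0.0425). That unblocked call was lost on leaving out any 1 of the 5 libraries other than paxillin siRNA replicate 3 (*CGNL1* adjusted p = 0.0862 to 0.195), while the blocked call was kept without any 1 number. The list's median of 0.11 with the block was close to that of the 9 genes. Chosen after its values were seen, the gene that fell in the blocked fit was *PRKCI*, the atypical protein kinase C of the PAR complex, from 55.4 ± 3.44 to 29.4 ± 8.70 CPM (adjusted p = 0.00189, and 0.0706 without the block).

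Of the 18 other claudins, 9 were tested, and 0 passed in either edgeR fit. Over all genes, 1.18% passed unblocked, and 11.7% were higher and 10.7% lower with the block. At an unadjusted p under 0.05 without the block there were also 0, against 22.5% of all genes. 3 of the 23 claudins had 0 reads in every library.

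The list of claudin-binding proteins, with the proteases and inhibitors that act on them, had the highest blocked median of the 7 related lists, at 1.31. All 8 of its genes were tested. Unblocked, 2 were higher, against 1.18% of all genes called in either direction. With the block 6 were higher, against 11.7% of all genes. *EPCAM*, an adhesion protein that holds CLDN7 at the membrane, held 7.54, 6.83 and 5.91 CPM in the non-specific libraries against 76.8, 58.6 and 22.4 CPM in the paxillin libraries. It rose by 2.96 ± 0.42 on the log2 scale (edgeR adjusted p = 0.0337), with the lowest paxillin value in replicate 3. *PRSS8* (prostasin, a membrane protease) rose from 0.751 ± 0.186 to 2.56 ± 0.655 CPM (edgeR adjusted p = 0.0485). Leaving out any 1 of the same 5 libraries also ended the unblocked calls of *EPCAM* (adjusted p = 0.0686 to 0.195) and *PRSS8* (0.0847 to 0.217), as did limma-voom (0.0511 and 0.0528). With the block and without number 1, *EPCAM* was still called and *PRSS8* was not (edgeR adjusted p = 0.00121 and 0.0515). Chosen after their values were seen, the protease inhibitors *SPINT1* and *SPINT2* went from 32.2 ± 18.5 to 135 ± 38.8 CPM and from 230 ± 61.1 to 433 ± 13.3 CPM (edgeR adjusted p = 0.000412 and 0.00221 with the block). Neither inhibitor passed unblocked (edgeR adjusted p = 0.0519 and 0.0663).

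Of 10 adherens junction genes tested out of 11, 1 was higher unblocked, against 1.18% of all genes called in either direction. With the block 3 were higher and 1 lower, against 11.7% and 10.7% of all genes. The gene higher unblocked was *CDH1* (E-cadherin), which rose from 13.2 ± 6.10 to 51.5 ± 12.6 CPM (log2 fold change 1.96 ± 0.36, edgeR adjusted p = 0.0496). The unblocked call of *CDH1* was likewise lost without any 1 of these 5 libraries (adjusted p = 0.0570 to 0.219) and its blocked call was kept without any 1 number. *CTNNA1*, alpha-catenin, which PC3 cells are known to have lost, had at most 0.346 CPM in any library and was not tested.

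Among transcription factors of the epithelial program, 1 of 8 activators tested was higher and 1 lower with the block. Of 6 repressors 1 was higher and 1 lower. These counts are near the shares of all genes in that fit, 11.7% higher and 10.7% lower. Of the 8 activators tested out of 11, *GRHL1* rose in the blocked fit from 6.13 ± 0.856 to 9.23 ± 2.79 CPM (edgeR adjusted p = 0.0481) and *KLF5* fell from 126 ± 25.1 to 84.4 ± 5.61 CPM (adjusted p = 0.0147). *GRHL2*, a grainyhead factor known to drive *CLDN4* in other epithelia, had 0.885 ± 0.712 CPM and then 1.47 ± 0.901 CPM, and missed the threshold (adjusted p = 0.0734 with the block). Of the 6 repressors, *ZEB1*, at 43.4 ± 1.68 CPM with non-specific siRNA, fell by 0.55 ± 0.14 on the log2 scale (edgeR adjusted p = 0.0163), and *SNAI2* rose from 15.7 ± 10.8 to 21.0 ± 10.4 CPM (adjusted p = 0.0284). None of these 4 calls stood in the unblocked edgeR fit, where the adjusted p-values were 0.104 to 0.683. With the block but without both libraries of number 1, *ZEB1*, *SNAI2*, *GRHL1* and *KLF5* all missed the threshold (edgeR adjusted p = 0.209, 0.255, 0.322 and 0.215). So did *ZEB1* and *GRHL1* without number 2 (0.0823 and 0.241) and *SNAI2* without number 3 (0.0525).

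**Figure D5:**
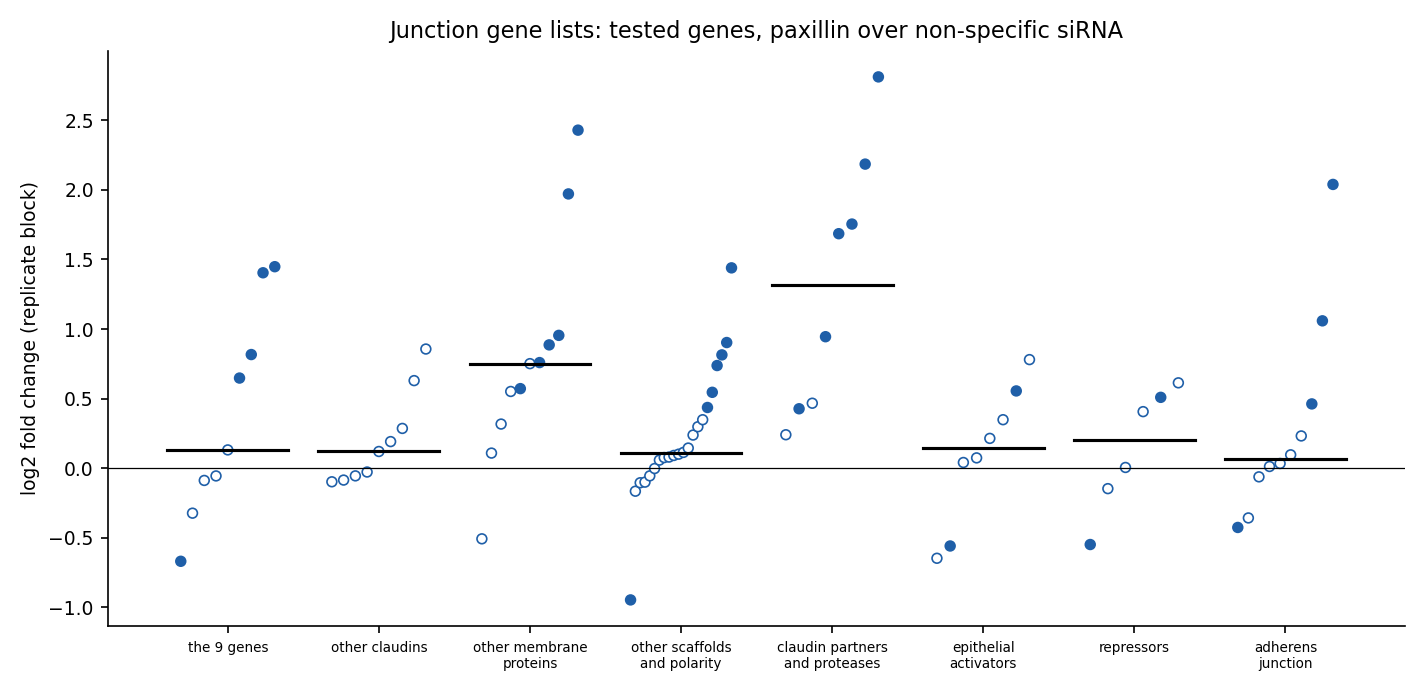
Log2 fold change in the blocked fit (y axis) for each tested gene of the 9 genes and 7 related lists (x axis). Filled points have an adjusted p under 0.05 and black bars are list medians. The highest bars are those of the claudin partners and proteases (1.31) and the other membrane proteins (0.75), and the bar of the 9 genes is at 0.13.

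The 6 libraries differ in depth and siRNA group, and all genes compared share those differences. The genes whose log2 CPM ran most like each member that moved were taken by Pearson's r over these libraries. For *F11R* they were *NLRX1* (r = 0.998), *CDH1* (0.997) and *ERBB3* (0.994), among 12499 genes compared. *CLDN1* was nearest to *CHST14* (0.997), *RAB1B* (0.995) and *NPTXR* (0.995), *CLDN7* to *KLHL24* (0.996), *PIM1* (0.996) and *USP20* (0.995). *OCLN* was nearest to *PIGG* (0.994), *SERPIND1* (0.993) and *MLYCD* (0.992), and *TJP3* to *SRGAP3* (0.995), *PI4KAP2* (0.994) and *PPFIA3* (0.994). Between 120 and 220 genes had r above 0.95 with each of them, so these names are a small part of many.

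Other groups of genes moved in the same libraries. The summed CPM of 12 proliferation genes was 1093, 1690 and 1206 in the non-specific libraries and 395, 476 and 938 in the paxillin libraries. All 12 fell in the blocked fit, against 10.7% of all genes. The 16 interferon response genes summed to 672, 1129 and 648 CPM and then to 3365, 5880 and 2522 CPM. All 16 rose in the blocked fit, against 11.7% of all genes. In both lists paxillin siRNA replicate 3 lay nearest to the non-specific libraries, as it did for *CLDN7*, *TJP3* and *F11R*. The part of these differences in the junction values was not tested.

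Markers of other cell types were given the same look. The 8 leukocyte markers summed to 1.24 to 1.81 CPM with non-specific and 2.28 to 2.89 CPM with paxillin siRNA. In the blocked fit 1 of the 2 tested rose (*LYZ*, chosen after its values were seen, at most 1.08 CPM), against 11.7% of all genes. Of the leukocyte list, *CD14* had up to 34 reads in a library, *LYZ* up to 32 and *ITGAM* up to 17, while *PTPRC*, *CD3D*, *CD3E* and *MS4A1* had at most 4. The 7 endothelial markers summed to 78.8 to 115 and 137 to 149 CPM, nearly all of it *KDR*. *PECAM1* had up to 127 reads in a library, and *CDH5* at most 3. Of the 4 endothelial markers tested, 1 rose in the blocked fit, against 11.7% of all genes. This was *KDR*, chosen after its values were seen, from 93.0 ± 19.1 to 140 ± 6.23 CPM (edgeR adjusted p = 0.00624, and 0.104 without the block). The 7 fibroblast markers summed to 80.2 to 160 and 83.9 to 144 CPM, with *COL1A1* at 49.2 to 107, *PDGFRA* at 9.62 to 32.3 and *COL3A1* at 4.83 to 25.6 CPM, and *DCN* at most 3 reads. Of the 5 fibroblast markers tested, *PDGFRA* was the 1 that fell in the blocked fit, against 10.7% of all genes. The part of these markers in the junction values was not tested.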

How the data were processed

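RNA was sequenced from 6 PC3 libraries, 3 per siRNA, grouped and numbered by their titles. The deposited estimated counts and FPKM per gene are those of Cufflinks 2.0.2 on hg19, per the submitters' processing notes and the file headers, and FastQC 0.10.1 is also named. Which aligner, gene models and strand setting applied was not given in the sources used here. Estimated counts deposited by the authors are whole reads times 1 factor per library: 91.2% to 91.7% of values were whole multiples within 0.05, and the reads printed are the nearest whole numbers, which for the 9 genes lay at most 0.0865 away (*CLDN4*).

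The rounded estimated counts went into edgeR 4.0.16 under R 4.3.3 (filterByExpr, TMM factors, quasi-likelihood, group only, two-sided, Benjamini-Hochberg over 15876 genes, threshold 0.05). The step was tested on simulated data. Alternatives were the replicate block, other size factors, DESeq2 1.42.0, limma 3.58.1 (voom, or log2 of FPKM plus 1 or 0.1), no filter on low values, the reads themselves, and leaving out libraries.

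Same-numbered libraries deviated together from their group means (r = 0.338, 0.431 and 0.562 for numbers 1 to 3, all above 0.1), so the numbers were taken as pairs. Libraries of unlike number and group gave r from -0.483 to 0.105, so the highest of these also lay just above 0.1. The labels do not say what the numbers stand for. Libraries of a group differed beyond sampling noise. Limits from 3 reads cover counting error only. Intervals of fold changes and ratios rest on the SE from edgeR. That SE also takes in the spread between these libraries, which may be technical.

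The members and gene lists were chosen with earlier results of these data known. Named beside the members were list genes called in the main test (at most 6 per list), else the 3 largest with the block, and *EPCAM*, *CDH1*, *GRHL2*, *ZEB1* and *SNAI2*. Some genes and 1 list that this rule covers are not reported here. Hg19 coordinates are those of the deposited table and GRCh38.p14 ones those of RefSeq.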

Additional observations from a re-analysis of the deposited data

How the results depend on the processing

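Upward calls among the 9 genes numbered 0 with the group only, 4 with the replicate block, 2 with DESeq2 and 0 to 3 when 1 library was left out. With the block and without both libraries of number 2 or 3 there were 2 and 4. Downward calls numbered 0, and 1 with the block, also 1 with the block and without both libraries of any 1 number. Over all genes tested, 188 were called. The count was 3561 with the block, 1559 with DESeq2, 303 with no filter on low counts, 33 and 63 with limma on log2(FPKM + 1) and log2(FPKM + 0.1), 0 with no filter on FPKM, and 0 to 2440 when 1 library was left out. Without both libraries of number 1, 2 or 3 the blocked fit called 455, 1336 and 4885. The cause of these differences was not tested.

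Of 402 values over 22 genes, 8 changed sign, 30 lost a call, 47 gained one and 317 did neither. The lost calls were those of *CGNL1*, *EPCAM*, *PRSS8* and *CDH1*, of which 20 came from leaving out 1 library. The log2 fold change of *CLDN4* was -0.285 to 0.0561 when 1 library was left out, and *CLDN4* gave 0.0197 with the replicate block and without both libraries of number 1. Leaving out 1 library moved *CLDN11* between -1.07 and 0.50, and it was 0.21 with the block and without both of number 2. *TJP1* lay between -0.14 and 0.00763 on leaving out 1 library, and at 0.0607 with the block and without both of number 1. A minimum mean of 1 FPKM left *CLDN7* and *TJP3* untested. Depth limits *TJP3* (13 to 99 reads in a library) and *CLDN7* (21 to 163) most.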
